A study of Mus musculus with 32 samples.

Results

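Mesenteric lymph nodes were set against peripheral lymph nodes of the same wild type mice, using 8 of the 32 arrays of the series: 4 mesenteric and 4 peripheral nodes, paired by mouse number. The mice were female C57BL/6 animals aged 12 weeks. Wild type here means non-transgenic littermates of mice that carry CD30L, a ligand of the TNF family, as a transgene. Most titles of the transgenic samples name it CD2-CD30L. The series also holds the same nodes of 4 CD30L transgenic mice, and spleens and thymuses of both genotypes. The transgenic nodes were used to set the wild type difference beside theirs. They also entered the choice of probe sets set apart as neighbouring tissue. All 32 arrays entered the choice of the brightest probe set of a gene, and some alternative settings. The labels do not say which peripheral sites were taken, how many nodes were pooled per mouse, or how the mice were housed. Whole nodes were profiled, so fewer cells of a type and less RNA per cell cannot be told apart in any value given here.

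A lymph node samples the fluid of the tissue it drains, and it is built of the same parts everywhere: high endothelial venules through which lymphocytes enter, follicles of B cells, a T cell zone held by reticular cells, and sinuses lined by lymphatic endothelium and macrophages. Mesenteric nodes drain the intestine, where food antigens, microbes and vitamin A arrive, and their venules carry the mucosal addressin MAdCAM-1, which binds the gut homing integrin α4β7. Peripheral nodes drain skin and muscle, and their venules carry mainly sulphated sugars known as the peripheral node addressin.

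Levels are log2 of the deposited intensity plus 16, after quantile normalization over the 8 arrays, so 4.00 is the floor at which a probe set had no positive signal. A log2 fold change is the mean over the 4 mice of mesenteric minus peripheral, on that scale, and it understates the change of dim genes. Values below run from mouse 1 to mouse 4. A gene was called where limma's paired test, adjusted by Benjamini-Hochberg over all probe sets tested, gave p under 0.05. Gene lists hold 1 probe set per gene, the brightest over the 32 arrays. The trimmed mean intensity of the arrays lay between 106 and 232 in mesenteric nodes and between 147 and 246 in peripheral nodes, and the mesenteric node of mouse 2 was the dimmest. Correlations between arrays were 0.939 to 0.985 among mesenteric nodes, 0.970 to 0.979 among peripheral nodes and 0.933 to 0.976 between nodes. The ratio of 3' to 5' probe signal, which reads RNA integrity, was 1.60 to 1.74 in mesenteric and 1.65 to 1.85 in peripheral nodes for Actb, and for Gapdh it was 1.16 to 1.37 in mesenteric and 1.36 to 2.02 in peripheral nodes. The Gapdh ranges barely overlapped, and the part of RNA integrity in the node differences was not tested. Glycam1, a sulphated mucin of high endothelial venules, was near 13 in both nodes and at the floor in spleen and thymus. Rag1, Dntt and Ptcra, genes of thymocytes, averaged 4.95, 5.48 and 4.46 in mesenteric and 4.97, 6.49 and 4.61 in peripheral nodes, against 12.9, 13.1 and 9.19 in wild type thymus. Glycam1 was thus high, and the thymocyte genes were far below their thymus levels, in both nodes. The other venule genes Chst4 and Fut7 averaged 6.93 and 6.34 in mesenteric and 7.92 and 7.49 in peripheral nodes. Spic, a gene of spleen red pulp, averaged 7.31 in mesenteric and 7.56 in peripheral nodes, against 9.62 in wild type spleen. The averages in this comparison of organs are after quantile normalization over the 32 arrays.

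Some arrays carried transcripts of neighbouring tissue. The mean level of 46 exocrine pancreas genes was 5.12, 10.32, 5.11 and 5.09 in mesenteric nodes, against 5.27, 5.27, 5.09 and 5.20 in peripheral nodes, so mouse 2 alone stood apart. Prss2, a trypsinogen, was 6.99, 13.26, 7.23 and 7.21 in mesenteric nodes and 7.36, 7.26, 7.44 and 7.61 in peripheral nodes. The mean of 81 skeletal muscle genes was 5.25, 5.32, 5.33 and 5.32 in mesenteric nodes, against 6.93, 5.35, 6.19 and 5.35 in peripheral nodes, where mice 1 and 3 stood apart. Acta1, skeletal actin, was 11.35 and 9.50 in those 2 peripheral nodes, against 4.96 and 4.85 in the peripheral nodes of mice 2 and 4. No member of either list was called by limma: of 27 pancreas genes tested, 1 had an unadjusted p under 0.05, and of 41 muscle genes, 11 had, where 16.4% of all 27022 probe sets tested had one. Without mouse 2 the median log2 fold change of the pancreas list was -0.11 in place of 1.2. Genes of these and 6 other lists of neighbouring tissue, and probe sets that followed the pancreas or muscle mean, were set apart, 270 of the 27022 tested. They held 4 of the 234 calls, all higher in mesenteric nodes.

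**Figure D1:**
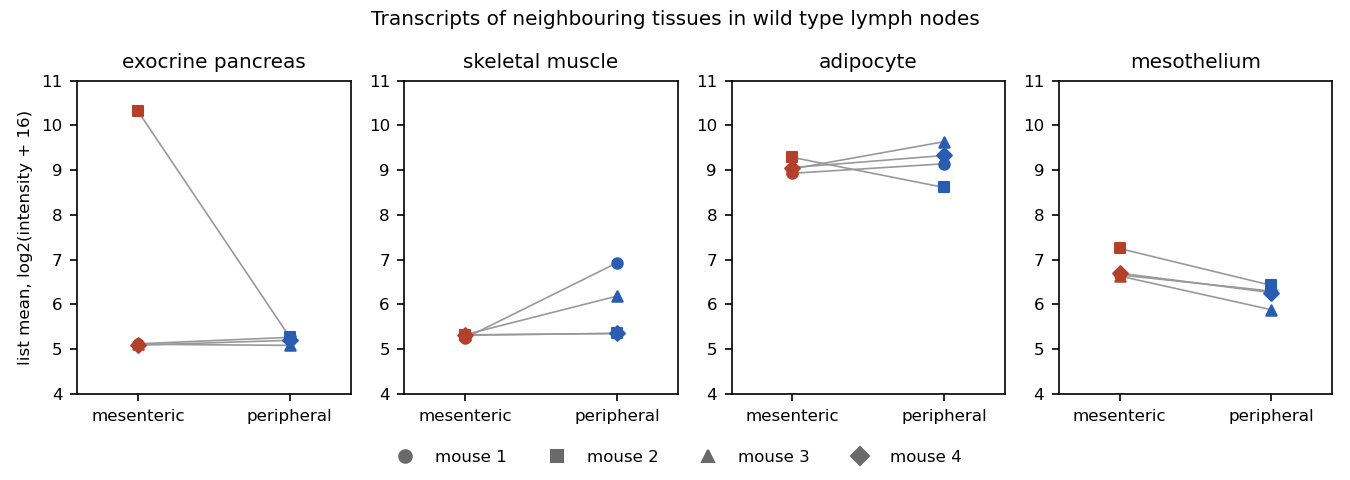
Mean log2(intensity + 16) of 4 lists of neighbouring tissue in the mesenteric and peripheral node of each wild type mouse, with a line joining the nodes of a mouse. Pancreas genes reached 10.32 in the mesenteric node of mouse 2, and muscle genes reached 6.93 and 6.19 in the peripheral nodes of mice 1 and 3.

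Mesenteric nodes had more of the IgA heavy chain, of germinal centre and cell division genes, of MAdCAM-1 and of enzymes that store vitamin A and make retinoic acid. Peripheral nodes had more of the mast cell proteases Cma1, Cpa3 and Mcpt4, of the chemokines Ccl8 and Ccl12 and of the receptors Timd4, Folr2 and Clec10a of macrophages and dendritic cells. Of 27022 probe sets, 174 were called higher in mesenteric nodes (0.644%) and 60 lower (0.222%), and all 234 had the same sign in all 4 mice. The 4 mesenteric values lay apart from the 4 peripheral values for 168 of the 174 and 58 of the 60, where 11.6% of all probe sets tested did so. Counted as 1 probe set per gene, 84 of 13118 genes were called higher (0.640%) and 43 lower (0.328%), and all genes tested had a median log2 fold change of -0.05, with 40.7% of them positive. The split of calls moved with the scaling: 74.4% of calls were higher in mesenteric nodes after quantile normalization, 59.9% after a common median and 43.6% with no normalization, and the median over all probe sets was -0.03, -0.12 and -0.22 in those 3 scalings. With 3 mice in place of 4, 17, 87, 19 and 16 probe sets were called without mouse 1, 2, 3 and 4. Of the genes named here, Madcam1, Lrat, Ptgis, Ccl8, Cma1, Cpa3, Bpifb2 and Bpifb3 were called whichever mouse was left out. Nkx2-3 was called without mouse 1, 2 or 3 and fell below the intensity filter without mouse 4.

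**Figure D2:**
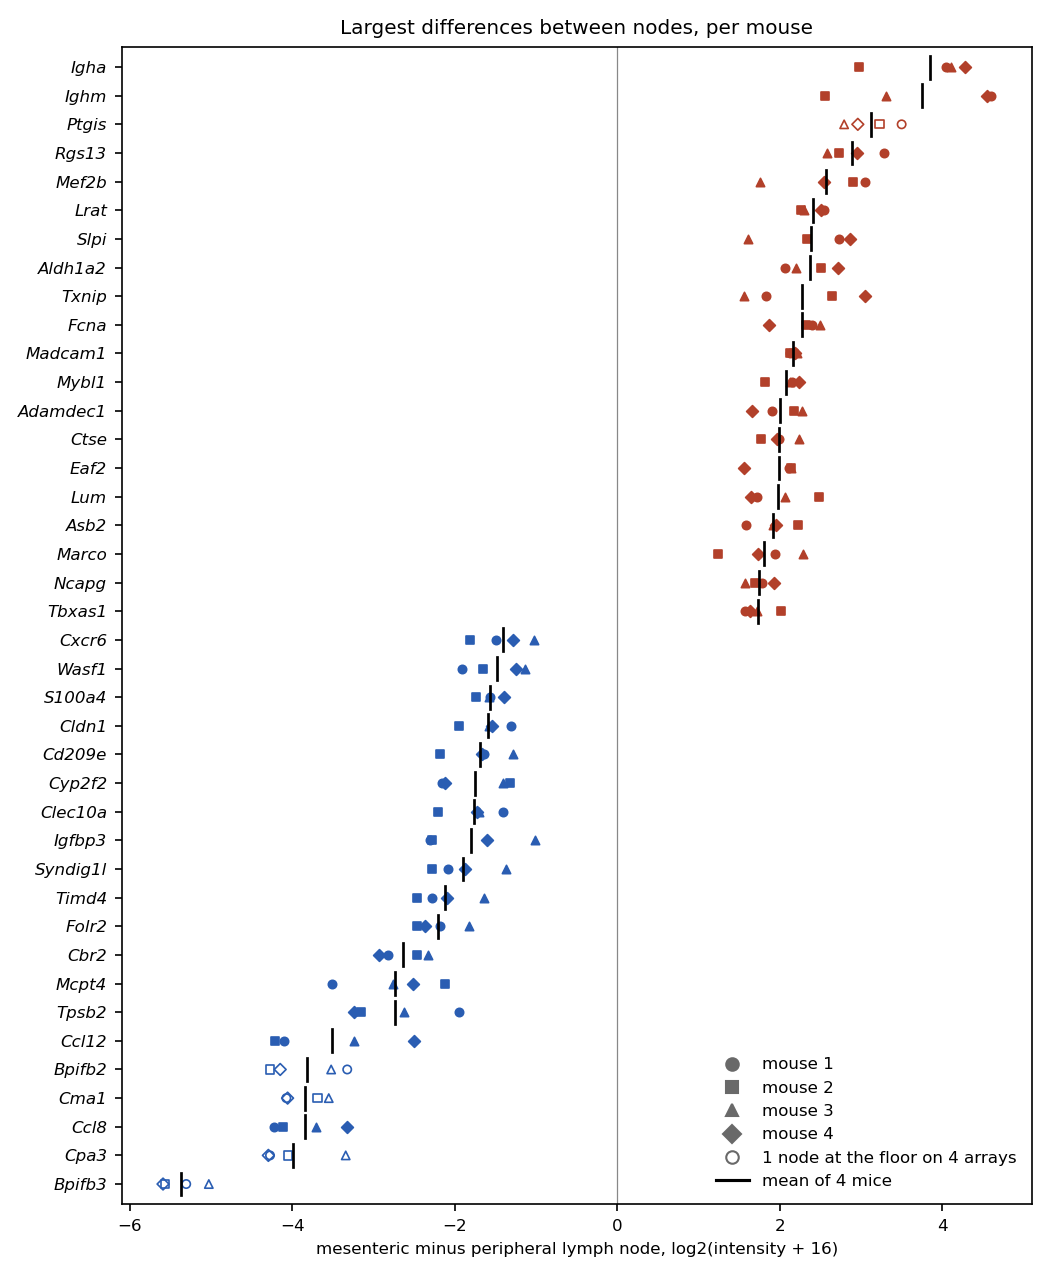
The 20 largest differences in each direction among called genes with 1 symbol that passed a further selection. Each had a mean above 7 in at least 1 node and was not set apart as neighbouring tissue. Called genes outside this selection are not shown, and some of them had larger differences. Values are mesenteric minus peripheral log2(intensity + 16) in each of the 4 mice (points) and their mean (bar). Open points mark genes at the floor in 1 of the nodes on all 4 arrays. The same sign in all 4 mice was a condition of this selection, so every point lies on the same side of 0 as its gene's mean.

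The vessel addressin that marks mucosal venules rose, and the genes of the peripheral node ligand did not. Madcam1 was 10.52, 10.12, 10.85 and 10.75 in mesenteric nodes, against 8.40, 7.99, 8.64 and 8.57 in peripheral nodes. The groups lay far apart, and each mouse's difference was close to the mean, a log2 fold change of 2.16 ± 0.09 (SE, n = 4 mice) or 4.48-fold (adjusted p = 0.00301). Nkx2-3, a homeobox factor needed for normal gut and spleen vasculature, was 6.52, 6.61, 6.52 and 6.86 in mesenteric nodes, against 4.00, 4.00, 4.00 and 4.67 in peripheral nodes, where 3 of 4 arrays were at the floor. It was called (adjusted p = 0.00301), and its fitted difference of 2.46 depends on the added 16, since it was 1.16 with 64 added. The other Nkx2-3 probe sets did not pass the intensity filter. Glycam1, a mucin that carries those sugars, was 13.07, 13.01, 13.09 and 13.10 in mesenteric nodes, against 13.32, 13.32, 13.18 and 13.21 in peripheral nodes. All 4 mesenteric values were below all 4 peripheral ones by a small step that was not called (-0.19 ± 0.10, adjusted p = 0.401). Chst4, the sulphotransferase that completes the ligand, was 6.64, 7.02, 6.60 and 7.02 in mesenteric nodes and 8.12, 7.83, 7.93 and 7.43 in peripheral nodes. Fut7, the fucosyltransferase of the same sugar, was 5.86, 5.62, 6.75 and 6.64 in mesenteric nodes and 7.56, 7.50, 7.12 and 7.37 in peripheral nodes. Neither was called, at -1.01 ± 0.20 (adjusted p = 0.104) and -1.17 ± 0.28 (adjusted p = 0.150), although the groups did not overlap for either gene. Of the 21 venule genes listed, 20 had a probe set and 18 were tested, and Madcam1 and Nkx2-3 were the 2 called. Both were higher, where 0.640% of all genes tested were called higher. The median log2 fold change of the 18 was -0.16.

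The promoter of Madcam1 is shown because this gene was called whichever mouse was left out, with capitals marking matches of an NF-kB site searched on both strands. The site is 10 letters with 1 free letter, and the capitals spell it out. It covers 250 bases before and 50 after the RefSeq start, at chr10:79664309-79664608 of GRCm38.p6, plus strand.
Madcam1: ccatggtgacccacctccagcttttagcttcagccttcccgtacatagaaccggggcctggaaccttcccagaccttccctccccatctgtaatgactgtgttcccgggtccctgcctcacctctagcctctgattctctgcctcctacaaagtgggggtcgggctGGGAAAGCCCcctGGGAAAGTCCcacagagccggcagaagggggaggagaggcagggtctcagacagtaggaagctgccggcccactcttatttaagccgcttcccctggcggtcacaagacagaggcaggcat
The window held 2 matches, and 0.578% of 32544 RefSeq promoters of this length held at least 1. The pattern equals these 2 sites but for the 1 letter in which they differ. That share therefore does not measure how rare NF-kB sites are. TNAAGTG, a core bound by NKX2 factors, had no match in this window and was held by 11.5% of promoters.

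On the lymphocyte side, receptors for gut homing were not called in either direction. None of the 18 homing receptors tested, of 21 listed, passed limma's test. An unadjusted p under 0.05 was found for 4 of them, near the share of 16.3% over all genes tested. Itga4, the α4 chain that pairs with β7 to bind MAdCAM-1, was 10.48, 10.60, 10.26 and 10.50 in mesenteric nodes and 10.11, 10.28, 9.88 and 10.36 in peripheral nodes (0.30 ± 0.10, adjusted p = 0.236). Its partner Itgb7 had a log2 fold change of -0.24 ± 0.10 (adjusted p = 0.319), and Ccr9, the receptor for the gut chemokine CCL25, of 0.35 ± 0.12 (adjusted p = 0.257). Itgae, the αE chain of CD103, stood at 0.05 ± 0.19 (adjusted p = 0.918) and Ccr7, the receptor that brings T cells and dendritic cells into nodes, at 0.03 ± 0.14 (adjusted p = 0.930). The signs of Itgae and Ccr7 turned negative after a common median or with no normalization. Itgb1, the β1 chain, was at 0.37 ± 0.11 (adjusted p = 0.208), and Gpr18, a receptor of intraepithelial lymphocytes, at -0.36 ± 0.10 (adjusted p = 0.190). Ccl19 and Ccl21a share probe sets with several symbols and are not reported.

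Enzymes that store vitamin A and make retinoic acid rose in every mouse. Aldh1a2, which makes retinoic acid from retinal, was 9.16, 9.39, 9.10 and 9.42 in mesenteric nodes, against 7.10, 6.88, 6.91 and 6.70 in peripheral nodes. All 4 mice showed it, and the log2 fold change was 2.37 ± 0.14 or 5.17-fold (adjusted p = 0.00665). Lrat, which esterifies retinol for storage, was 7.89, 7.56, 7.62 and 7.68 in mesenteric nodes, against 5.35, 5.30, 5.32 and 5.18 in peripheral nodes, a log2 fold change of 2.40 ± 0.10 (adjusted p = 0.00301). A dimmer Lrat probe set gave 0.67 and was not called (adjusted p = 0.131). Of 22 pathway genes listed, 15 were tested, and these were the 2 called higher, with none lower. Among all genes tested, 0.640% were called higher and 0.328% lower. Aldh1a1, a second retinal dehydrogenase, was 7.05, 8.04, 7.21 and 7.03 in mesenteric nodes and 6.78, 5.66, 5.99 and 6.02 in peripheral nodes (1.22 ± 0.33, adjusted p = 0.180). Rxrg, a retinoid receptor that was singled out after its values were seen, was called lower at -0.99 ± 0.11 (adjusted p = 0.0333).

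Aldh1a2 and Slpi also stand on the list of mesothelium, the lining of the gut's membranes, and that list moved with the node. Upk3b, a uroplakin of mesothelium, was 7.01, 8.28, 7.13 and 7.41 in mesenteric nodes and at the floor in all 4 peripheral nodes (adjusted p = 0.00865). No fold is given against the floor, and the fitted difference was 3.46, or 1.83 with 64 added. Of 20 mesothelium genes with a probe set, 15 were tested. Upk3b, Slpi and Aldh1a2 were the 3 called higher, against 0.640% of all genes tested. The mean of the list was 6.66, 7.25, 6.64 and 6.70 in mesenteric nodes and 6.30, 6.43, 5.88 and 6.27 in peripheral nodes. Its epithelial keratins Krt8, Krt18 and Krt19 had log2 fold changes of -1.67, -1.26 and -1.04, none called, and Msln and Wt1 did not pass the intensity filter. The part of such tissue in the difference of Aldh1a2 was not tested.

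Among immunoglobulins, the IgA heavy chain rose in all 4 mice. Igha was 13.10, 13.14, 13.21 and 13.28 in mesenteric nodes, against 9.05, 10.16, 9.11 and 9.0 in peripheral nodes. The highest peripheral value, in mouse 2, still lay well below every mesenteric one, and the log2 fold change was 3.85 ± 0.23 or 14.4-fold (adjusted p = 0.00665). The other 2 Igha probe sets gave 3.16 and 3.65, both called. Ighm, the IgM heavy chain, had 9 probe sets tested, which disagreed. The Ighm probe set with the largest difference was 11.86, 10.30, 11.67 and 11.57 in mesenteric nodes, against 7.27, 7.75, 8.37 and 7.02 in peripheral nodes (3.75 ± 0.37, adjusted p = 0.0250). Of the other 8, 4 were called higher, at 1.73 to 3.56, and 4 were not called, at -0.63 to -0.01. The brightest Ighm probe set differed by -0.01 ± 0.18 (adjusted p = 0.985), so no direction for total IgM message is given. Immunoglobulin genes are near-identical copies, and probe sets with the suffix x can bind several of them. Igk, the kappa light chain, had 4 probe sets tested. The brightest rose by 0.97 ± 0.12 (adjusted p = 0.0378), a call that was lost after a common median and with no normalization, and the other 3 were not called, at 0.90, 0.42 and -0.0049. Iglv1, a lambda variable segment, was at 0.73 ± 0.14 (adjusted p = 0.0998).

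Plasma cell genes leaned the same way with few calls. Jchain, which joins IgA and IgM into polymers, was 12.54, 12.41, 12.61 and 12.57 in mesenteric nodes and 11.59, 11.70, 11.37 and 10.77 in peripheral nodes. The groups did not overlap, and the difference missed the threshold (1.17 ± 0.19, adjusted p = 0.0751). Eaf2, a partner of the elongation factor ELL that is active in germinal centre and plasma cells, rose by 1.99 ± 0.14 (adjusted p = 0.0102). Slpi, a secreted protease inhibitor that also stands on the mesothelium list, rose by 2.38 ± 0.22 (adjusted p = 0.0226). These were the 2 called of 23 plasma cell genes tested, where 0.640% of all genes tested were called higher. A positive log2 fold change was found for 19 of the 23, against 40.7% of all genes tested, and the median was 0.33. Tnfsf13b, the B cell survival factor BAFF, went the other way: it was 6.52, 6.81, 7.02 and 6.89 in mesenteric nodes and 8.10, 8.0, 7.91 and 8.06 in peripheral nodes (-1.21 ± 0.14, adjusted p = 0.0333). A second Tnfsf13b probe set gave -0.18 and was not called.

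Germinal centre B cell genes were called higher in mesenteric nodes in 5 of 18 cases tested, against 0.640% of all genes tested, and lower in none. Rgs13, a regulator of G protein signalling of germinal centre B cells, was 9.41, 8.61, 8.85 and 8.77 in mesenteric nodes, against 6.12, 5.88, 6.27 and 5.82 in peripheral nodes. The gap between the groups was over 2 log2 units, and the log2 fold change was 2.89 ± 0.14 or 7.41-fold (adjusted p = 0.00394). Mef2b, a transcription factor of these cells, was 7.83, 7.39, 7.28 and 7.40 in mesenteric nodes and 4.79, 4.49, 5.52 and 4.86 in peripheral nodes (2.56 ± 0.23, adjusted p = 0.0204). Mybl1, the A-Myb factor, rose by 2.08 ± 0.11 (adjusted p = 0.00500), with mouse 1 the highest of the mesenteric nodes at 7.80. Gcsam, a signalling adaptor of germinal centres, rose by 1.32 ± 0.10 (adjusted p = 0.0148), and Neil1, a DNA glycosylase, by 0.94 ± 0.11 (adjusted p = 0.0361). Neil1 was no longer called after a common median or with no normalization, and the Gcsam call was also lost with no normalization. Bcl6, the factor that drives the germinal centre programme, had a log2 fold change of 0.35 and was not called. The median of the list was 0.28, and it was 0.15 after a common median and 0.05 with no normalization. Il21, a cytokine of follicular helper T cells, was 6.51, 6.27, 6.28 and 6.77 in mesenteric nodes and 5.37, 4.99, 5.48 and 5.07 in peripheral nodes (1.22 ± 0.16, adjusted p = 0.0473). The Il21 call was lost with no normalization.

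Genes of cell division were higher in mesenteric nodes. All 30 tested of 32 listed had a positive log2 fold change, for 29 of them the nodes did not overlap, and all 30 had an unadjusted p under 0.05. Of all genes tested, 40.7% were positive and 16.3% had such a p, and 11.6% of all probe sets tested did not overlap. Of the 30 on the list, 9 were called higher, against 0.640% of all genes tested, with a list median of 0.78. Mki67, the proliferation marker Ki-67, was 10.08, 9.86, 9.53 and 9.64 in mesenteric nodes, against 8.35, 8.38, 8.47 and 8.07 in peripheral nodes (1.46 ± 0.14, adjusted p = 0.0226). Tpx2, a spindle assembly factor, rose by 1.29 ± 0.13 (adjusted p = 0.0258), and Ube2c, a ubiquitin conjugating enzyme of mitotic exit, by 1.24 ± 0.12 (adjusted p = 0.0226). Cenpe, a kinetochore motor, rose by 1.08 ± 0.11 (adjusted p = 0.0249) and Bub1, a spindle checkpoint kinase, by 1.00 ± 0.09 (adjusted p = 0.0226). The other 4 called were Cdk1, Cdc20, Top2a and Nusap1. Ncapg, a condensin subunit outside the list, rose by 1.74 ± 0.11 (adjusted p = 0.00665). By the probe sets on the list, the replication helicase genes Mcm2, Mcm3, Mcm4, Mcm5, Mcm6 and Mcm7 lay between 0.28 and 0.58, below the list median, and none was called. Of 4 further Mcm3 probe sets, 1 was called at 1.42 ± 0.17 (adjusted p = 0.0366) and the others lay between 0.24 and 0.70. Dimmer probe sets of Tpx2, Bub1 and Cenpe were not called. The count of calls moved with the settings, from 0 with no normalization or no filter to 22 in 1 fit over 32 arrays, while the median stayed positive at 0.57 to 0.86. Without mouse 1, 3 or 4 it was 0 calls and without mouse 2 it was 1.

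**Figure D3:**
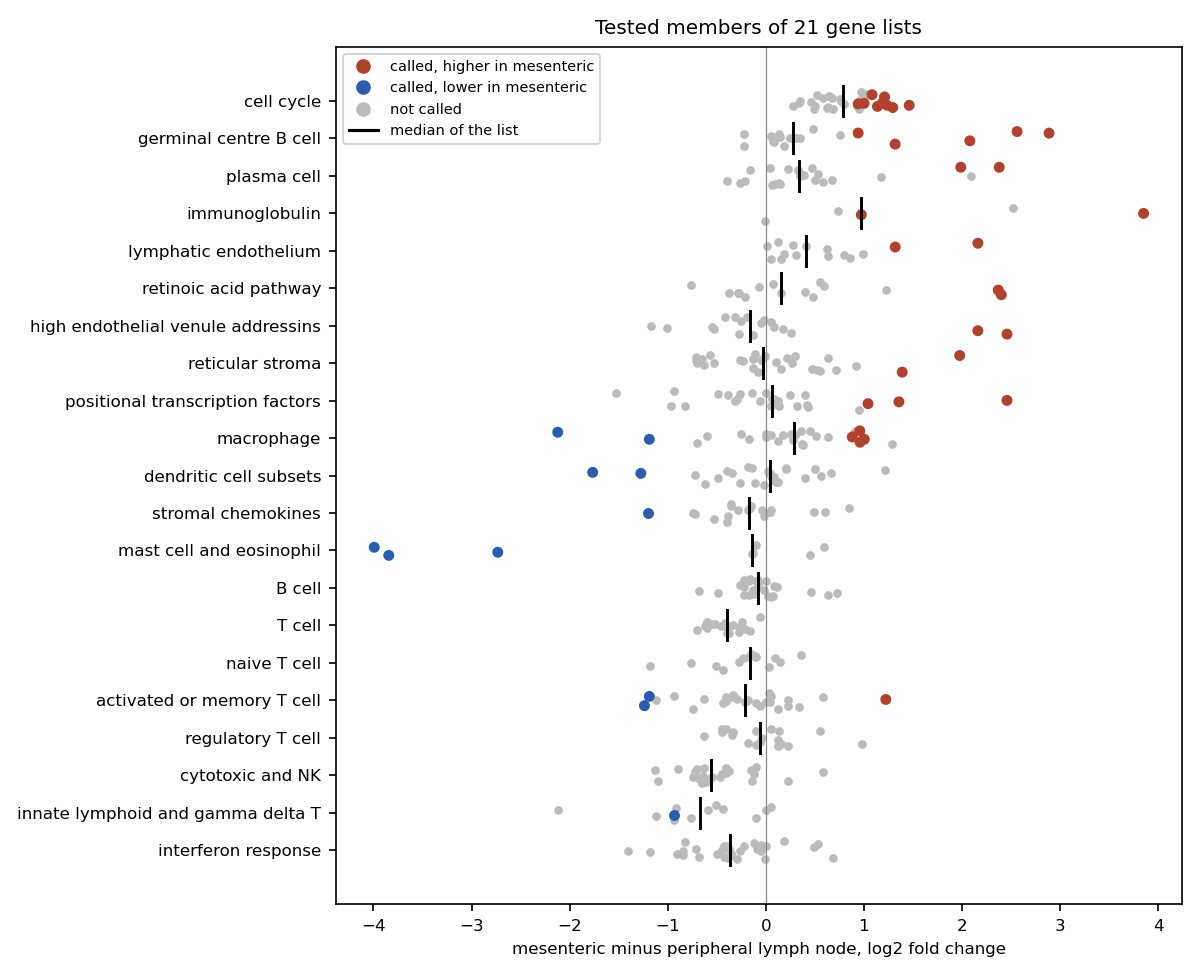
Log2 fold change, mesenteric minus peripheral, of each tested member of 21 gene lists, with coloured points for called genes, grey points for the others and a bar at the list median. All 30 cell cycle genes lie right of 0 and all 19 T cell genes left of it, with no T cell gene called.

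No gene common to B cells or to T cells passed the test, and the log2 fold changes of the T cell genes were negative throughout. None of 25 B cell genes was called by limma, and the list median was -0.08. An unadjusted p under 0.05 was found for 5 of the 25, near the share of 16.3% over all genes tested. Of the B cell genes with the smallest p, Ciita, the master regulator of MHC class II genes, was at 0.72 ± 0.13 (adjusted p = 0.0845) and Vpreb3 at 0.64 ± 0.12 (adjusted p = 0.0915). Cr2, the complement receptor of B cells and follicular dendritic cells, was at -0.08 ± 0.12 (adjusted p = 0.784). Of 19 T cell genes tested, none was called, 10 had an unadjusted p under 0.05 and none had a positive log2 fold change. Of all genes tested, 16.3% had such a p and 40.7% were positive. Cd3d, a chain of the T cell receptor complex, was 11.17, 10.80, 11.58 and 11.53 in mesenteric nodes and 11.74, 11.73, 12.07 and 11.92 in peripheral nodes (-0.60 ± 0.12, adjusted p = 0.111). Cd3e was at -0.42 ± 0.12 (adjusted p = 0.185), Cd8a at -0.62 ± 0.13 (adjusted p = 0.110) and Thy1 at -0.70 ± 0.17 (adjusted p = 0.150). The median of the list was -0.40, and it lay between -0.69 and -0.29 in the alternatives run. In the fit over 32 arrays 7 of the 19 were called lower, and with an intensity trend 2 were. The naive T cell list had a median of -0.16 with 0 of 14 called and 4 with an unadjusted p under 0.05, where 16.3% of all genes tested had one. Dapl1 of that list was 8.81, 8.38, 10.17 and 9.59 in mesenteric nodes and 9.93, 10.43, 10.75 and 10.54 in peripheral nodes, with overlap (-1.18 ± 0.25, adjusted p = 0.112).

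A few genes of innate and effector T cells fell in mesenteric nodes. Cxcr6, the receptor for CXCL16 on effector and innate T cells, was 7.40, 7.08, 8.0 and 7.68 in mesenteric nodes, against 8.89, 8.89, 9.03 and 8.96 in peripheral nodes (-1.40 ± 0.15, adjusted p = 0.0281). A second Cxcr6 probe set gave -0.93 and was not called (adjusted p = 0.0663). Il18r1, a chain of the IL-18 receptor, fell by 1.24 on the log2 scale (SE 0.12, adjusted p = 0.0234). The gene 5830411N06Rik, listed with γδ T cell genes, fell by 0.94 (SE 0.11, adjusted p = 0.0353). Cd163l1, a scavenger receptor of γδ T cells that was singled out after its values were seen, was 5.18, 4.00, 4.54 and 5.18 in mesenteric nodes and 6.61, 7.62, 6.86 and 6.27 in peripheral nodes (-2.11 ± 0.42, adjusted p = 0.104). Of 24 cytotoxic and NK genes tested, none was called and 13 had an unadjusted p under 0.05, against 16.3% of all genes tested, with a median of -0.56. In that list Klrd1, the CD94 chain, stood at -0.90 ± 0.14 (adjusted p = 0.0688), Ccl5 at -0.74 ± 0.13 (adjusted p = 0.0845) and Nkg7, a protein of cytotoxic granules, at -0.72 ± 0.11 (adjusted p = 0.0624). With no mouse block 6 of the 24 were called lower. S100a4, a calcium binding protein of effector T cells and myeloid cells, was 9.44, 9.30, 9.80 and 9.69 in mesenteric nodes and 11, 11.04, 11.37 and 11.09 in peripheral nodes (-1.57 ± 0.10, adjusted p = 0.00865). Regulatory T cell genes had 0 of 19 called, 7 with an unadjusted p under 0.05 (16.3% of all genes tested had one), and a median of -0.06.

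No interferon response gene was called, and the direction differed between mice. Their list mean was 8.70, 8.74, 8.95 and 9.0 in mesenteric nodes and 9.67, 9.38, 9.05 and 8.72 in peripheral nodes, so the difference was negative in mice 1, 2 and 3 and positive in mouse 4. Of 30 tested, limma called none and 6 had an unadjusted p under 0.05, near the share of 16.3% over all genes tested. Oas2, an antiviral synthetase, was 6.86, 6.92, 6.77 and 6.91 in mesenteric nodes and 8.16, 8.15, 7.45 and 7.06 in peripheral nodes (-0.84 ± 0.22, adjusted p = 0.167).

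The mast cell proteases Cma1 and Cpa3 were at the floor in mesenteric nodes and clear in every peripheral node, and Mcpt4 and 1 probe set of Tpsb2 fell. Cma1, a mast cell chymase, was 4.00 on all 4 mesenteric arrays and 8.07, 7.69, 7.55 and 8.06 on the peripheral ones (adjusted p = 0.00217). Cpa3, the carboxypeptidase of mast cell granules, was likewise 4.00 on all 4 mesenteric arrays and 8.28, 8.05, 7.34 and 8.30 on the peripheral ones (adjusted p = 0.00301). No fold is given for either, and their fitted differences of -3.84 and -3.99 became -2.13 and -2.25 with 64 added. Mcpt4, a second chymase, was 4.01, 5.62, 4.00 and 4.71 in mesenteric nodes and 7.52, 7.74, 6.76 and 7.23 in peripheral nodes (-2.73 ± 0.23, adjusted p = 0.0201). Tpsb2, a mast cell tryptase, was 5.39, 4.23, 4.00 and 4.00 in mesenteric nodes and 7.33, 7.39, 6.62 and 7.24 in peripheral nodes (-2.74 ± 0.24, adjusted p = 0.0201). Of 21 mast cell and eosinophil genes with a probe set, 8 passed the filter. Cma1, Cpa3 and Mcpt4 were the 3 called, where 0.328% of all genes tested were called lower. The list holds Tpsb2 by another probe set that did not pass. That second Tpsb2 probe set averaged 5.4 in mesenteric and 4.97 in peripheral nodes and was not tested. Kit, the receptor of stem cell factor, and Gata2, a factor of mast cells, differed by -0.10 and -0.14, and Tpsab1, another tryptase, by 0.59, none called.

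The promoters of the 3 called protease genes are shown because these genes moved together, each with the 250 bases before and 50 after the RefSeq start, from GRCm38.p6 and read along the gene's own strand, the minus strand in all 3. Capitals mark matches of NGATAA, the site of GATA factors, searched on both strands. They lie at chr14:55944626-55944925, chr3:20242132-20242431 and chr14:56062261-56062560 for Cma1, Cpa3 and Mcpt4.
Cma1: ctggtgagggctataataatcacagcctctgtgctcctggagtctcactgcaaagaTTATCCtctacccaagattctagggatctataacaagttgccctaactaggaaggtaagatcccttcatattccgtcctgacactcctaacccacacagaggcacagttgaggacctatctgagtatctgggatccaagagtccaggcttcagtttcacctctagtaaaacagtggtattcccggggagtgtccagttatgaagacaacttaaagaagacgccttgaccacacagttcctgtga
Cpa3: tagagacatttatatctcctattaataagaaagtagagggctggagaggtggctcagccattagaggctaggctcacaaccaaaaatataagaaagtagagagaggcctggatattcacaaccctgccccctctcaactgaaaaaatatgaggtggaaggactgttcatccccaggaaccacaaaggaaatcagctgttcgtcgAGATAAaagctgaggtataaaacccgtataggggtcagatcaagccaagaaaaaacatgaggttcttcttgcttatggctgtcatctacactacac
Mcpt4: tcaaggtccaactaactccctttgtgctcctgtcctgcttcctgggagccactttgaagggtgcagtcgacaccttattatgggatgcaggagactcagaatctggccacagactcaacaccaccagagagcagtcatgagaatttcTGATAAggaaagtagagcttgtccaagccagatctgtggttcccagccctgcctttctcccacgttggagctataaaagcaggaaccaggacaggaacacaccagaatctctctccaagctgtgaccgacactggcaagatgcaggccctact
Each window held 1 match, and 25.3% of 32544 RefSeq promoters held at least 1. CATGTG, a box bound by MITF, had no match in the 3 windows and was held by 14.2% of promoters.

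The chemokines Ccl8, Ccl12 and Ccl7, which draw monocytes and stand on none of the lists, were lower in mesenteric nodes. Ccl8 was 7.51, 7.51, 7.66 and 7.98 in mesenteric nodes, against 11.74, 11.63, 11.38 and 11.30 in peripheral nodes. The narrow spread within each group left a wide gap, a log2 fold change of -3.85 ± 0.17 or 14.4-fold lower in mesenteric nodes (adjusted p = 0.00301). Ccl12 was 4.60, 4.00, 5.47 and 6.09 in mesenteric nodes and 8.70, 8.22, 8.72 and 8.59 in peripheral nodes (-3.52 ± 0.31, adjusted p = 0.0201), and the mesenteric values spread widely near the floor. Ccl7, of the same family and singled out after its values were seen, fell by 1.04 (SE 0.10, adjusted p = 0.0219). Ccr2, the receptor of monocytes for CCL7 and CCL12, was 7.47, 7.35, 7.62 and 7.47 in mesenteric nodes and 8.70, 8.73, 8.60 and 8.62 in peripheral nodes (-1.19 ± 0.11, adjusted p = 0.0219). A dimmer Ccr2 probe set gave -0.71 and was not called (adjusted p = 0.0984). Of 20 stromal chemokines and survival factors tested, Tnfsf13b was the 1 called, lower, where 0.328% of all genes tested were called lower. Cxcl13, which draws B cells into follicles, was at -0.53 ± 0.11 (adjusted p = 0.108).

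Macrophage genes split by direction: of 26 tested, Marco, Slc40a1, Adgre1 and Fcgr3 were called higher and Timd4 and Ccr2 lower. Among all genes tested, 0.640% were called higher and 0.328% lower. Folr2, Cbr2, Fcna and Gpnmb, described with the macrophage genes, stand outside that list. Timd4, a receptor for phosphatidylserine on resident macrophages, was 8.95, 9.09, 9.31 and 9.13 in mesenteric nodes, against 11.23, 11.56, 10.96 and 11.23 in peripheral nodes (-2.12 ± 0.16, adjusted p = 0.0128). Folr2, the folate receptor of macrophages, was 7.53, 7.72, 7.75 and 7.48 in mesenteric nodes and 9.72, 10.19, 9.58 and 9.84 in peripheral nodes (-2.21 ± 0.14, adjusted p = 0.00673). Cbr2, a carbonyl reductase, fell by 2.64 (SE 0.14, adjusted p = 0.00473). In the other direction Marco, a scavenger receptor of sinus macrophages, was 11.16, 11.52, 11.14 and 11.10 in mesenteric nodes, against 9.22, 10.27, 8.85 and 9.37 in peripheral nodes (1.80 ± 0.18, adjusted p = 0.0263). The brighter Marco probe set gave 0.96, also called (adjusted p = 0.0403). Fcna, ficolin A, a lectin of the complement system made by macrophages, was 10.60, 10.72, 10 and 9.85 in mesenteric nodes and 8.20, 8.40, 7.50 and 7.99 in peripheral nodes (2.27 ± 0.14, adjusted p = 0.00665). Slc40a1, the iron exporter ferroportin, rose by 1.00 ± 0.11 (adjusted p = 0.0294), Adgre1, the F4/80 antigen, by 0.96 ± 0.12 (adjusted p = 0.0365) and Fcgr3, an Fc receptor, by 0.88 ± 0.11 (adjusted p = 0.0353). These 3 calls were lost after a common median and with no normalization. Gpnmb, a glycoprotein of lipid-laden macrophages singled out after its values were seen, rose by 1.57 ± 0.14 (adjusted p = 0.0201). The pan-macrophage genes Cd68 and Csf1r differed by 0.12 and 0.36, neither called.

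Clec10a, Cd209e and Cd209a, C-type lectins of dendritic cells and macrophages, were lower in mesenteric nodes, while Clec4g, Clec1b and Clec11a were higher. Clec10a, a galactose lectin, was 8.32, 7.55, 7.59 and 7.72 in mesenteric nodes and 9.72, 9.76, 9.30 and 9.45 in peripheral nodes (-1.76 ± 0.15, adjusted p = 0.0201). Cd209e and Cd209a, of the DC-SIGN family, fell by 1.69 (SE 0.16, adjusted p = 0.0227) and by 1.27 (SE 0.16, adjusted p = 0.0368). Clec10a and Cd209a were the 2 called of 28 dendritic cell genes tested, both lower, where 0.328% of all genes tested were called lower. The rises, chosen after their values were seen, were 1.37 ± 0.13 for Clec4g (adjusted p = 0.0218), 1.44 ± 0.14 for Clec1b (adjusted p = 0.0250) and 1.42 ± 0.13 for Clec11a (adjusted p = 0.0201). Cd207, the langerin of skin dendritic cells, did not pass the filter: it was 4.55, 4.00, 4.00 and 4.00 in mesenteric nodes and 4.48, 6.18, 4.68 and 5.95 in peripheral nodes. Xcr1, a receptor of cross-presenting dendritic cells, had a log2 fold change of 1.22 and was not called.

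Stroma and lymphatic vessels differed in a few matrix genes. Lum, the collagen binding proteoglycan lumican, was 9.91, 10.59, 10.36 and 10.22 in mesenteric nodes, against 8.20, 8.11, 8.29 and 8.57 in peripheral nodes (1.98 ± 0.17, adjusted p = 0.0201). Col14a1, a fibril associated collagen, rose by 1.39 ± 0.15 (adjusted p = 0.0274). Lum and Col14a1 were the 2 calls among 28 reticular stroma genes, where 0.640% of all genes tested were called higher. The median of that stroma list was -0.03. Reln, the secreted glycoprotein reelin of lymphatic endothelium, was 8.71, 8.46, 8.62 and 8.28 in mesenteric nodes and 7.29, 7.21, 6.89 and 7.39 in peripheral nodes (1.32 ± 0.16, adjusted p = 0.0353). A dimmer Reln probe set was at -0.66 and not called (adjusted p = 0.477). Reln was called with Madcam1 among 15 lymphatic endothelium genes, where 0.640% of all genes tested were called higher. All 15 had a positive log2 fold change by the probe set on the list, against 40.7% of all genes tested. The median of that list was 0.41, falling to 0.23 after a common median and 0.13 with no normalization. Lyve1, Flt4 and Prox1, which mark lymphatic endothelium, were at 0.99, 0.86 and 0.62 by the list's probe sets, none called. A second Lyve1 probe set was called at 1.11 ± 0.09 (adjusted p = 0.0201), while second probe sets of Flt4 and Prox1 were at 0.78 and -0.35 and not called. Adipocyte genes, read as a measure of fat around the nodes, had a list mean of 8.93, 9.29, 9.03 and 9.06 in mesenteric nodes and 9.14, 8.61, 9.64 and 9.33 in peripheral nodes. Of 43 adipocyte genes tested, 0 were called and 11 had an unadjusted p under 0.05, where 16.3% of all genes tested had one. Their part in the stromal differences was not tested.

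Transcription factors that record position along the body were tested in 27 of 57 cases. Of these, 3 were called, all higher, where 0.640% of all genes tested were called higher. Besides Nkx2-3, Hoxc8 was 8.43, 8.65, 8.34 and 8.32 in mesenteric nodes and 7.45, 7.56, 7.17 and 7.39 in peripheral nodes (1.04 ± 0.10, adjusted p = 0.0226), a call lost after a common median and with no normalization. Tcf21, a factor of visceral mesenchyme, was 6.04, 6.48, 6.08 and 6.07 in mesenteric nodes and 4.99, 4.67, 5.02 and 4.56 in peripheral nodes (1.36 ± 0.16, adjusted p = 0.0358). A second Tcf21 probe set averaged 6.12 in mesenteric and 6.13 in peripheral nodes (adjusted p = 0.985). Prrx1, a factor of limb and skin mesenchyme, had a log2 fold change of -1.53 and was not called.

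Lipid mediator and other single genes made up the rest of the largest differences. Ptgis, prostacyclin synthase, was 7.50, 7.23, 6.79 and 6.96 in mesenteric nodes and at the floor on all 4 peripheral arrays (adjusted p = 0.00301), with a fitted difference of 3.12, or 1.56 with 64 added. Tbxas1, thromboxane synthase, rose by 1.73 ± 0.12 (adjusted p = 0.00865), while Ptgds, a prostaglandin D synthase singled out after its values were seen, was at -0.81 ± 0.16 in its brighter probe set (adjusted p = 0.102) and called in its dimmer one, at -1.14 ± 0.12 (adjusted p = 0.0271). Bpifb3, of the BPI fold family, was 4.00 on all 4 mesenteric arrays and 9.31, 9.56, 9.03 and 9.59 on the peripheral ones (adjusted p = 0.000859). A probe set without a single symbol shared this smallest adjusted p of all probe sets, at a log2 fold change of -5.71. Bpifb2, a relative of Bpifb3, was also 4.00 on all 4 mesenteric arrays and 7.32, 8.28, 7.52 and 8.15 on the peripheral ones (adjusted p = 0.00394). The fitted differences of Bpifb3 and Bpifb2 were -5.37 and -3.82, and with 64 added -3.48 and -2.11.

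Further rises were seen for Adamdec1, a metalloproteinase of macrophages and dendritic cells (2.01 ± 0.14, adjusted p = 0.00902), Asb2, a ubiquitin ligase subunit (1.92 ± 0.13, adjusted p = 0.00989), and Sqle, squalene epoxidase of sterol synthesis (1.26 ± 0.13, adjusted p = 0.0279). Ctse, cathepsin E, rose by 1.99 ± 0.11 in 1 probe set (adjusted p = 0.00662) and was at -0.22 in the other (adjusted p = 0.357). Txnip, a regulator of thioredoxin, likewise rose by 2.27 ± 0.27 in 1 probe set (adjusted p = 0.0353) and was at 0.29 in the brighter one (adjusted p = 0.240). Csn2, the milk protein beta casein, was 8.60, 8.15, 7.63 and 7.61 in mesenteric nodes and 4.83, 5.14, 5.43 and 5.26 in peripheral nodes (2.84 ± 0.28, adjusted p = 0.0238), while the other caseins Csn3, Csn1s1 and Csn1s2a were at -1.34, 0.12 and 0.11, none called. Further falls were seen for Igfbp3, which binds insulin-like growth factors (-1.80 ± 0.24, adjusted p = 0.0493), Cyp2f2, a cytochrome P450 (-1.75 ± 0.19, adjusted p = 0.0279), and Cldn1, a tight junction protein (-1.60 ± 0.13, adjusted p = 0.02). Syndig1l fell by 1.90 (SE 0.17, adjusted p = 0.0201) and Wasf1, an actin regulator, by 1.48 (SE 0.16, adjusted p = 0.0280).

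**Figure D4:**
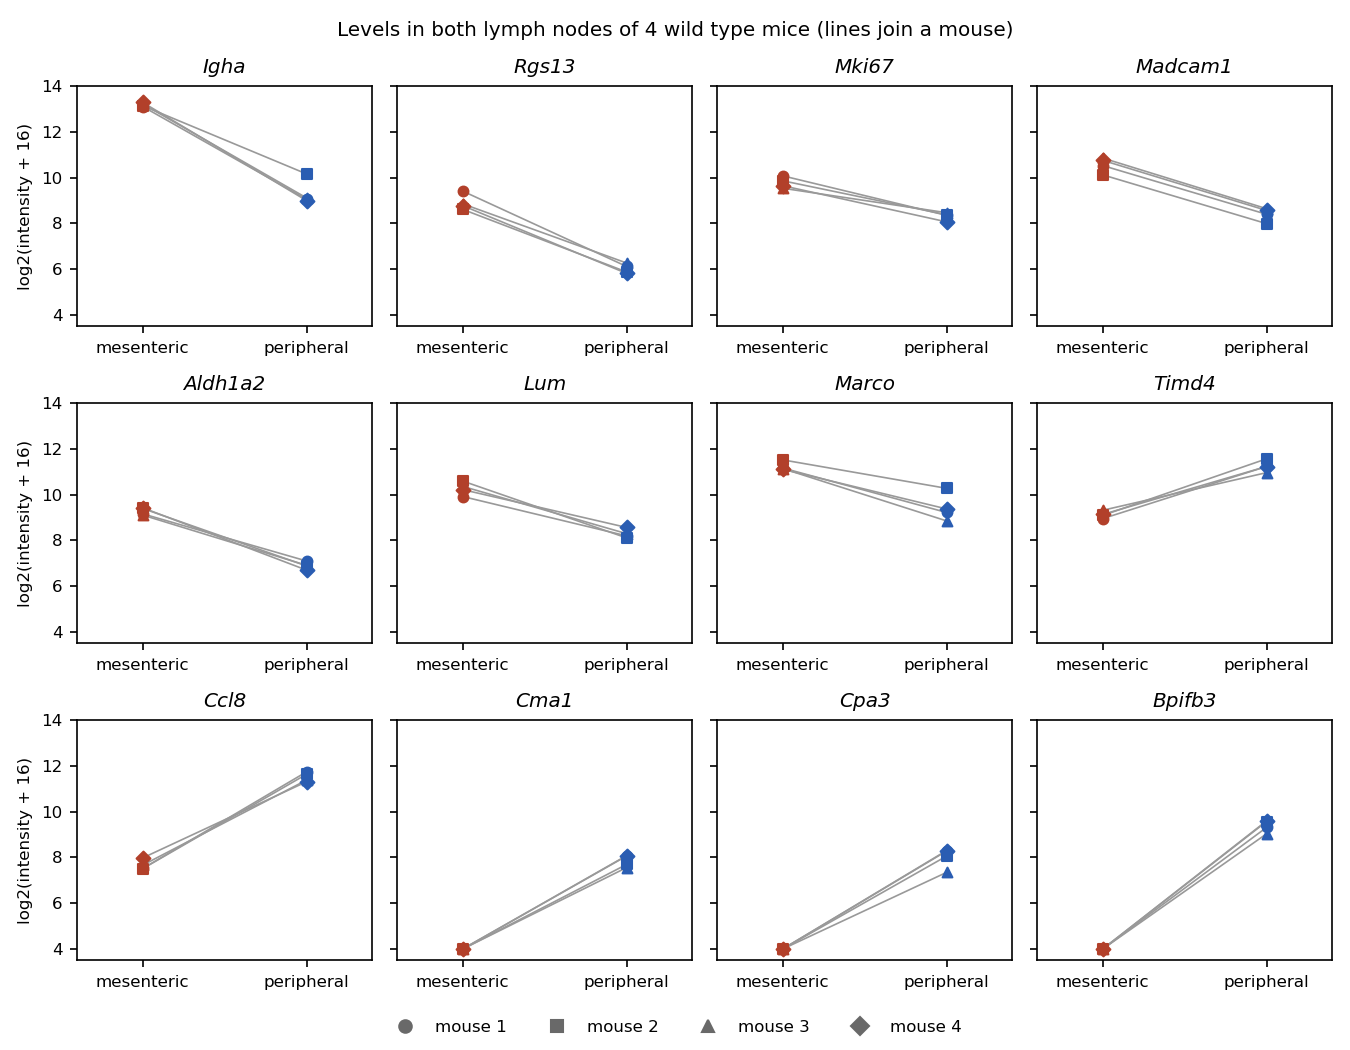
Levels of 12 genes as log2(intensity + 16) in the mesenteric and peripheral node of each of 4 wild type mice, with a line joining the nodes of a mouse. Cma1, Cpa3 and Bpifb3 sit at the floor of 4.00 in all 4 mesenteric nodes, and the mesenteric values of Igha, Rgs13, Mki67, Madcam1, Aldh1a2, Lum and Marco all lie above the peripheral ones.

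The same nodes of 4 CD30L transgenic mice gave a second look at each gene. They were not in the main wild type fit, but helped choose the probe sets set apart and the brightest probe set of each gene. The mesenteric node of transgenic mouse 1 stood apart in the ratio of 3' to 5' signal, at 3.10 for Actb and 2.18 for Gapdh, against 1.59 to 1.75 and 1.25 to 1.3 in the other 3 transgenic mesenteric nodes. Of the 174 probe sets called higher in wild type, 143 were also higher in transgenic mice on average, 102 of them in all 4 mice. Of the 60 called lower, 57 were lower on average, 52 in all 4 mice. Without transgenic mouse 1, a choice made after the data were seen, 172 of the 174 were higher on average, 133 in all 3 mice, and 58 of the 60 were lower, 56 in all 3 mice. For 31 of the 174 and 4 of the 60, transgenic mouse 1 alone went against the wild type sign. The transgenic mice's own paired fit called 34 of 27022 probe sets (0.126%), among them 11 of the 174 and 13 of the 60 with the wild type sign. Vessel, vitamin A and mast cell genes kept their sign. The transgenic and wild type log2 fold changes were 2.43 and 2.16 for Madcam1, 2.53 and 2.46 for Nkx2-3, 2.11 and 2.40 for Lrat, and 2.08 and 2.37 for Aldh1a2. They were -3.52 and -3.84 for Cma1, and -3.51 and -3.85 for Ccl8.

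Several germinal centre and antibody genes had smaller or opposite log2 fold changes in transgenic mice, but no difference between genotypes was called. The log2 fold changes in transgenic and wild type mice were 1.17 and 2.89 for Rgs13, 2.21 and 3.85 for Igha, -0.17 and 2.38 for Slpi, and -0.12 and 3.75 for the Ighm probe set described above. Without transgenic mouse 1 the transgenic values were 1.18 for Rgs13, 2.12 for Igha, 0.03 for Slpi and 0.25 for that Ighm probe set. With transgenic mouse 1 kept and all arrays normalized together, mean peripheral levels in transgenic and wild type mice were 8.86 and 6.14 for Rgs13. They were 11.05 and 9.41 for Igha and 10.74 and 8.24 for Slpi. Mesenteric means were 10.02 and 8.99, 13.27 and 13.14, and 10.58 and 10.61 in the same order. Smaller differences of these genes thus went with higher peripheral levels in transgenic mice. These genes were called in wild type mice, which favours larger wild type differences. Of the 27022 probe sets tested, limma called 0 for a difference of the node effect between genotypes (0.00%), where 1443 had an unadjusted p under 0.05. The alternatives called 1 after a common median, 5 with no normalization, 1 with a filter at the 60th percentile and 1 with an intensity trend. Without transgenic mouse 1, 0 were called and 1027 had an unadjusted p under 0.05. The smallest adjusted p was 0.0908, for a probe set without a gene symbol, and 0.222 for it without transgenic mouse 1. It was 10.53, 10.27, 10.03 and 9.99 in mesenteric and 6.30, 5.6, 6.39 and 6.01 in peripheral nodes of wild type mice, and its log2 fold change was 1.54 in transgenic and 4.13 in wild type mice. The next were 3 Ighm probe sets and Iglv1, each with an adjusted p of 0.349 for the difference.

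**Figure D5:**
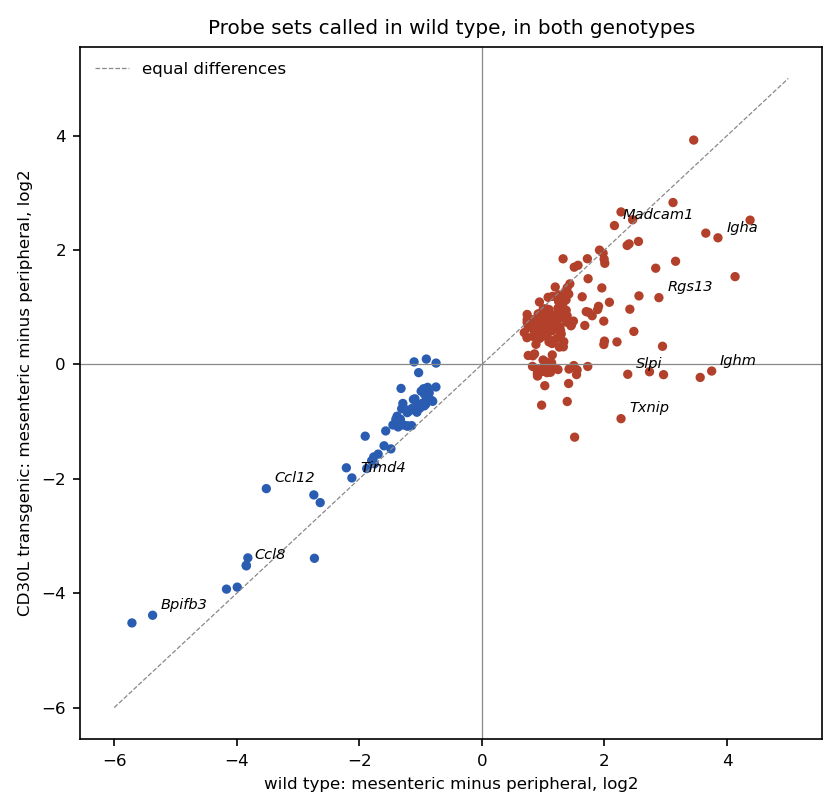
Mesenteric minus peripheral log2 fold change of the 234 probe sets called in wild type mice, in CD30L transgenic (vertical) against wild type mice (horizontal), with a dashed line of equal differences. Of the points right of 0, 143 of 174 lie above 0, and of the points left of 0, 57 of 60 lie below it; transgenic mouse 1 is included.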

How the data were processed

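The authors deposited 1 intensity per probe set and array on a linear scale, 45101 per array, per the file header and values. Between 15.4% and 18.4% of the values on each wild type node array were negative, and the algorithm behind them is not given in the sources used here, nor is any scaling. Per the labels' protocols, 5 µg of total RNA was labelled with biotin. The deposited intensities were turned into log2 values here, with negative intensities set to 0 and 16 added. Quantile normalization ran over the 8 arrays, 64 control probe sets were dropped, and the filter kept 27022 probe sets whose mean exceeded the 40th percentile.

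The fit was limma 3.58.1 in R 4.3.3 with mouse number as a block and Benjamini-Hochberg adjusted p under 0.05. Each labelled mouse gave both nodes, which is where the pairing comes from. The deviations of its nodes from the group means correlated at 0.25, 0.05, 0.25 and -0.08 for mice 1 to 4. For the genotypes, limma compared the per-mouse node differences. The mice are separate animals per the labels, and having 4 per group limits precision. On simulated data made from these means and spreads over 27022 probe sets, the paired fit recovered 0%, 30%, 76% and 80% of 50 changes each of 0.5, 1, 1.5 and 2 on the log2 scale. The test of the difference between genotypes recovered 0%, 44%, 74% and 74%, with the wild type spread used for both genotypes. The spread of the transgenic mice was not simulated, so these shares may not hold for the test on the real data.

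Symbols came from the array's annotation table, with identifiers updated through RefSeq's GRCm38.p6 gene table, which held 34741 of 34945 probe sets with 1 symbol. Another 932 had several symbols and 9160 none, and these were not named by gene. In the 40 lists the brightest probe set by its mean across 32 arrays stood for a gene, and 996 of 1134 entries had one. Probe sets were set apart as following pancreas or muscle where they correlated at 0.9 or more with the list mean over the 8 arrays of the node and ranged over 2 log2 units or more (135 and 30 probe sets). Named genes were the 20 largest rises and 20 largest falls that were called, had the same sign in all 4 mice, 1 symbol, a mean above 7 in at least 1 node and no place among the transcripts set apart, up to 5 called members of each list (or 3 uncalled), 22 genes always named, the 4 brightest pancreas and muscle genes, and the 5 smallest p for the difference between genotypes. Other list members named for context fall outside this rule and were chosen after their values were seen: Krt8, Krt18, Krt19, Msln, Wt1, Bcl6, Cdk1, Cdc20, Top2a, Nusap1, Mcm2 to Mcm7, Kit, Gata2, Tpsab1, Cd68, Csf1r, Xcr1, Clec4g, Clec1b, Clec11a, Lyve1, Flt4, Prox1, Prrx1, Csn3, Csn1s1 and Csn1s2a. The members and lists were chosen with earlier results of these data known. The alternatives tried were a common median, no normalization or normalization over 32 arrays, pseudocounts of 1 and 64, dropping the filter or raising it to the 60th percentile, no mouse block, 1 fit over 32 arrays, an intensity trend with robust moderation, array weights and leaving out each mouse. Added after the data were seen were no filter without constant probe sets, and leaving out transgenic mouse 1. Some genes of the rule are not reported here.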

Additional observations from a re-analysis of the deposited data

Results flagged for a closer look

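Each named gene and list mean was examined in each node for a mouse far from the other 3 of its group. Of 316 groups of 4, 24 held such a value. Chance would flag about 1 in 20 groups of independent values without a floor, which does not hold here. A group with 3 arrays at the floor is flagged whenever the other array lies above it. Pancreas genes also moved together on 1 array. The mesenteric node of mouse 2 gave 12 of the 24. Its pancreas genes stood high, with a list mean of 10.32, Ctrc at 10.39, Klk1 at 9.72, Nupr1 at 11.63, Prss2 at 13.26 and Zg16 at 13.27. The mesothelium list mean was 7.25 there, Marco was 11.52, Adgre1 10.38, Col14a1 9.75, Tcf21 6.48 and Tpm1 9.25, all above the other 3 mice.

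In the mesenteric node of mouse 1, Mybl1 was high at 7.80, Tpsb2 at 5.39 and Cd207 at 4.55, and the muscle list mean was low at 5.25. In peripheral nodes, Igha was high in mouse 2 at 10.16 and S100a9 low there at 7.75. Iigp1 was high in mouse 1 at 10.38, and Bub1 was low in mouse 3 at 5.94. In mouse 4, Nkx2-3 was high at 4.67, Cd8a at 10.13 and Ctrc at 5.78, and Nupr1 was low at 8.14. All values are levels on the log2(intensity + 16) scale.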

How the results depend on the processing

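Of 234 probe sets called (230 without carried-over transcripts), a common median gave 247, no normalization 275 and normalization over 32 arrays 226, of which 160, 99 and 226 were shared with the 234. Both counts, the second without carried-over transcripts, were 64 and 63 with a pseudocount of 1, 550 and 541 with 64, and 518 and 512 with a filter at the 60th percentile. They were 898 and 879 in 1 fit over 32 arrays, 692 and 682 with an intensity trend, and 555 and 546 with array weights. Without the replicate block by mouse they were 516 and 509, with 203 shared, and the block changed the call of 14 named genes, of which 2 were called only with it. With no filter 1 was called; 3271 of the 45037 probe sets then tested held 1 value on all 8 arrays. Leaving those out, an alternative chosen after seeing the data, gave 43 and 42, with 40 of the 43 shared. Leaving out each mouse gave 16 to 87 and 16 to 85. The difference between genotypes had 1, 5, 1 and 1 calls with a common median, no normalization, the 60th percentile filter and an intensity trend, and 0 in the other alternatives run, including the added one without transgenic mouse 1. Of 71 called probe sets followed into both scalings, 6 lost their call with a common median and 20 with no normalization. Those lost only with no normalization included Gcsam, Il21, Reln, Col14a1, Ccl7, Rxrg, Sqle, 5830411N06Rik and the named cell cycle genes Mki67, Tpx2, Ube2c, Cenpe and Bub1.

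No called gene named here changed sign in any alternative that tested it. Of 72 called probe sets followed through the alternatives, 65 were tested at a pseudocount of 1 and 55 with the 60th percentile filter. Nkx2-3 was tested in 10 of 15 alternatives. Among uncalled genes, with a common median and no normalization Itgae was -0.12 and -0.22, Ccr7 -0.15 and -0.26, Tpm1 -0.031 and -0.13, and Fhl1 -0.060 and -0.16. With array weights Itgae was -0.10 and Fhl1 -0.12. Leaving out 1 mouse gave ranges of -0.10 to 0.19 for Itgae, -0.089 to 0.13 for Ccr7, -0.13 to 1.06 for Nupr1, -0.33 to 1.82 for Prss2, -0.52 to 1.90 for Zg16 and -0.21 to 0.32 for Fhl1, with mouse 2 the one that turned the 4 genes last named. The cause of these changes was not tested. The limits are 4 mice, deposited values whose algorithm is unknown, 1 dim mesenteric array, and a Gapdh 3' to 5' ratio that leaned higher in peripheral nodes. A further limit is a floor that leaves the size of the Cma1, Cpa3, Bpifb2, Bpifb3, Ptgis and Upk3b differences undetermined. At a pseudocount of 1, Cpa3, Cma1, Bpifb2, Ptgis, Upk3b, Nkx2-3 and Tpsb2 fell below the filter. Nkx2-3 also fell below it after a common median and with no normalization.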
